A study of Homo sapiens with 19 samples.

Results

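The genes described here encode the building blocks of microtubules and their main sequestering proteins. They are 10 of the 19942 protein-coding genes in the TPM and eCLIP tables and were chosen by gene name. The set holds the alpha tubulins TUBA1A, TUBA1B and TUBA1C, the beta tubulins TUBB, TUBB2A, TUBB2B, TUBB3 and TUBB4B, and the stathmins STMN1 and STMN4. In the rRNA-depleted table the same genes were represented by 79 transcripts.

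Alpha and beta tubulin form a dimer that polymerizes into microtubules, which fill axons and dendrites and carry transport in neurons. Stathmins bind free dimers and lower the pool that can polymerize. When free tubulin accumulates, cells destroy tubulin mRNA during its translation: TTC5 recognizes the first residues of the nascent tubulin chain, and SCAPER then recruits the CCR4-NOT deadenylase complex. Arsenite (AS) is an oxidative stressor that halts translation initiation and gathers mRNAs in stress granules (SGs), which assemble around the RNA-binding proteins G3BP1 and G3BP2.

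All samples were SH-SY5Y cells, a human neuroblastoma line. Poly-A RNA-seq followed transfection of a control siRNA (siCtrl) or of siRNAs against G3BP1 (siG3BP1) or G3BP2 (siG3BP2). RNA of the lysate supernatant after low-speed centrifugation (Total) and of SG cores pulled down with a G3BP1 antibody (SG) came from AS-treated cells. Each of these 5 conditions had 1 library, and so had each of the rRNA-depleted libraries of untreated and AS-treated cells. eCLIP, in which UV light crosslinks RNA to the protein before immunoprecipitation, was done for G3BP1 and for G3BP2 in untreated (Ctrl) and AS-treated cells, each combination with 2 libraries. The label of the AS-treated rRNA-depleted sample gives 500 μM AS for 1 h. Its untreated partner is labelled as having had none. The labels of all knockdown, Total, SG and eCLIP samples, siCtrl and the untreated eCLIP samples included, give 50 mM for 1 h, so whether the knockdown cells had received AS could not be settled from the labels. The methods name 500 μM as the dose and describe no AS in the knockdown protocol. Nothing in the labels says that eCLIP replicates came from separate cultures, and p-values therefore measure the spread between these libraries only.

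The cells carried the markers of their line. All 7 neuroblastoma markers were above 1 TPM in siCtrl and summed to 3229 TPM there, 2089 in Total and 4661 in SG. Of 7 mesenchymal markers 5 were above 1 TPM in siCtrl, and their sum was 55.9 TPM in siCtrl, 44.3 in Total and 512 in SG, of which NOTCH2 made up 260 TPM (1.13 in Total). Of 5 glial markers 1 passed that level, with a sum of 2.50 TPM in siCtrl and 3.38 in SG. In bulk RNA, fewer cells of a type and less RNA per cell cannot be told apart. The siRNAs lowered their targets to 32.0% of siCtrl for G3BP1 and to 29.9% for G3BP2.

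The isotypes are near copies of each other in their coding sequence, which bears on how reads can be assigned to them. Between the 3 alpha tubulins the coding sequences were 95.9% to 97.2% identical, and between the 5 beta tubulins 81.6% to 98.1%, with TUBB2A and TUBB2B the closest pair. The first 24 coding bases of the GENCODE v44 canonical transcripts are given because they encode the residues that mark a nascent chain as tubulin, with the first 12 bases in capitals.
TUBA1A: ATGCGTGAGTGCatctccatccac
TUBA1B: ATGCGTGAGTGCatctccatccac
TUBA1C: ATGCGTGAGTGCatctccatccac
TUBB: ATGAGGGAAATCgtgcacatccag
TUBB2A: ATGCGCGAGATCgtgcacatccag
TUBB2B: ATGCGTGAGATCgtgcacatccag
TUBB3: ATGAGGGAGATCgtgcacatccag
TUBB4B: ATGAGGGAAATCgtgcacttgcag
The 3 alpha tubulins share these 12 bases, while the 5 beta tubulins carry 4 versions of them that encode the same residues.

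The ends of the coding sequences are given because they encode the acidic tails that project from the microtubule surface, where most isotypes differ. The last 30 coding bases of the beta tubulins follow, with the stop codon in capitals.
TUBB: ttcggtgaggaggccgaagaggaggccTAA
TUBB2A: gaggaggaggagggcgaggacgaggctTAA
TUBB2B: gaggaggaggagggcgaggacgaggcgTAG
TUBB3: gaggagtcggaggcccagggccccaagTGA
TUBB4B: gaggaggaggctgaggaggaggtggccTAG
All 5 beta tubulins differ over this stretch in their bases, which need not change the encoded residues.

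The annotation adds further overlap. On hg38, TUBA1B lies at chr12:49127782-49131397 on the minus strand, TUBA1A at chr12:49184686-49189080 on the minus strand and TUBA1C at chr12:49188736-49274600 on the plus strand, so that the starts of TUBA1A and TUBA1C overlap. TUBB2A, at chr6:3153497-3157544, and TUBB2B, at chr6:3223324-3231730, are neighbours on the minus strand. TUBB3, at chr16:89921392-89938761 on the plus strand, lies within the annotated read-through gene ENSG00000198211. TUBB (chr6:30717435-30725538) and TUBB4B (chr9:137241287-137243707) are on the plus strand, and STMN1 (chr1:25884181-25906991) is on the minus strand. Each tubulin transcript has 4 exons, STMN1 has 5 and STMN4 has 7.

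How much of each transcript is unique was measured by its 50-base words. Of the words in the TUBB3 transcript, 92.8% also occurred on either strand in transcripts of other genes, and the read-through gene held all of these. For TUBA1B the share was 87.1%, and 68.7% of its words were shared with its antisense gene TUBA1B-AS1. TUBB2A shared 64.6% of its words with other genes, and 59.5% of its words occurred in TUBB2B. TUBB2B reached 54.9%, TUBA1A 50.6%, TUBA1C 42.7%, TUBB 32.7% and TUBB4B 15.3%. In STMN1 and STMN4 the share was 0%. Words shared with other members made up 59.5% for TUBB2A, 56.6% for TUBA1B, 50.5% for TUBA1A and 49.8% for TUBB2B. They made up 26.7% for TUBA1C, 8.57% for TUBB3, 6.21% for TUBB4B and 0% for TUBB. The split of reads between tubulin isotypes is uncertain to the extent of these latter shares, and that between members and other genes to the extent of the former. The strand setting of the authors' counting is not given in the sources used here.

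In siCtrl cells the 2 large alpha tubulins stood far above the other members. TUBA1B, the most abundant isotype, was at 3149 TPM with rank 16 among the listed genes, and TUBA1A, the main isotype of developing neurons, was at 1892 TPM with rank 36. TUBB3, the beta tubulin typical of neurons, followed at 975 TPM (its read-through gene ENSG00000198211 was listed at 587 TPM), TUBB4B at 708, TUBB2B at 443, STMN1 at 362 and TUBB2A at 344 TPM. TUBA1C at 108 TPM, TUBB at 87.5 and STMN4 at 41.5 TPM closed the order. With 1 library, the spread behind these levels is unknown, so neighbours such as STMN1 and TUBB2A, or TUBA1C and TUBB, cannot be ranked against each other. The alpha tubulins summed to 5149 TPM and the beta tubulins to 2557 TPM, and both together made up 1.19% of the TPM of all listed genes. These sums hold the members only and leave out ENSG00000198211.

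**Figure D1:**
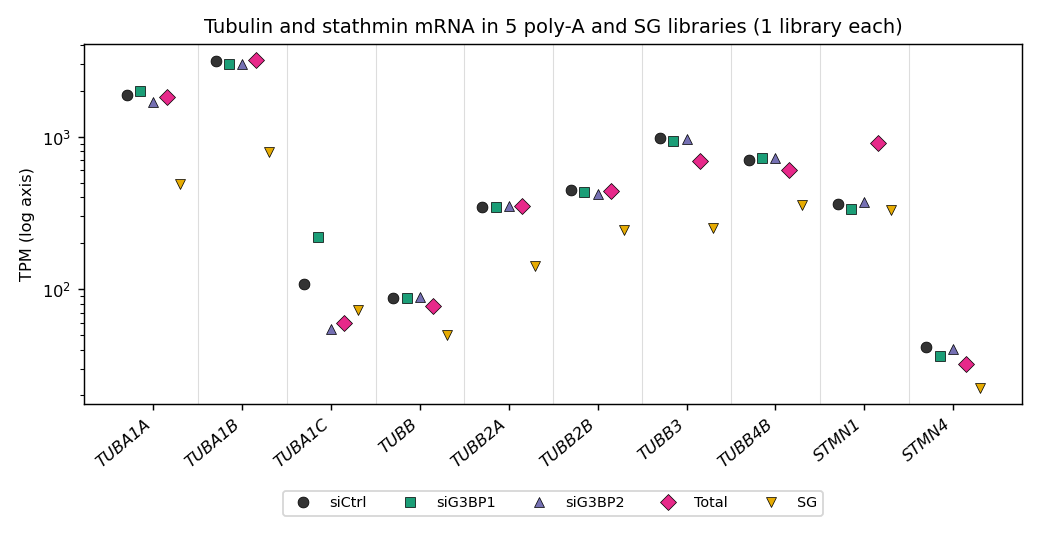
TPM (log axis) of each member in the siCtrl, siG3BP1, siG3BP2, Total and SG libraries, with 1 point per library and no replicate. The SG point is the lowest of the 5 for 9 of the members, and TUBA1C is the gene whose siCtrl, siG3BP1 and siG3BP2 points lie apart.

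The SG libraries ask which RNAs gather in SGs after AS. Relative to Total, tubulin and stathmin mRNAs were low in SG cores. A gene was classed as SG-enriched or SG-depleted when the fold of TPM + 1 was above 2 or below 0.5 and the higher library exceeded 1 TPM, and as Neither otherwise. TUBA1A, TUBA1B, TUBB2A, TUBB3 and STMN1 were SG-depleted, the other 5 members were Neither, and none was SG-enriched. Among all 13560 genes classed, 9.45% were SG-depleted and 62.9% SG-enriched. The ratio of SG to Total was below 1 for 9 of the 10 members, against 20.0% of all genes. The median log2 fold of the members was -1.08, that of all genes 1.51.

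The alpha tubulins held both extremes. TUBA1B had 3175 TPM in Total and 793 in SG, a ratio of 0.25, and TUBA1A had 1837 and 492, a ratio of 0.268. TUBA1C, the least abundant alpha isotype here, was at 59.9 TPM in Total and 72.3 in SG, a ratio of 1.21. It was the member above 1, and its share of the alpha tubulin TPM was 1.18% in Total and 5.32% in SG. With the listed genes rescaled to the same sum in each library, its fold was 0.03 on the log2 scale of TPM + 1, close to no difference.

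Among the beta tubulins, TUBB3 was lowest relative to Total, with 689 TPM in Total and 252 in SG (ratio 0.365). TUBB2A had 351 and 142 TPM (0.404), and its near copy TUBB2B had 438 and 242 TPM (0.554). TUBB4B had 605 and 354 TPM (0.584) and TUBB 77.6 and 49.6 TPM (0.639). The last 3 lay between the class limits. The share of TUBB3 in the beta tubulin TPM was 31.9% in Total and 24.2% in SG, while that of TUBB4B was 28.0% in Total and 34.0% in SG. The summed beta tubulins had a ratio of 0.481 and the summed alpha tubulins one of 0.268. The read-through gene ENSG00000198211, listed at 418 TPM in Total and 151 in SG, is left out of these shares and sums.

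STMN1, the broadly expressed cytosolic stathmin, had 904 TPM in Total and 331 in SG, a ratio of 0.367. STMN4, a neural stathmin attached to membranes, had 32.3 and 22.4 TPM, a ratio of 0.695. STMN1 was also the member whose Total level departed most from siCtrl, at 2.49 times its 362 TPM. The Total and siCtrl libraries differ in siRNA and RNA preparation and may differ in AS, which cannot be told apart.

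**Figure D2:**
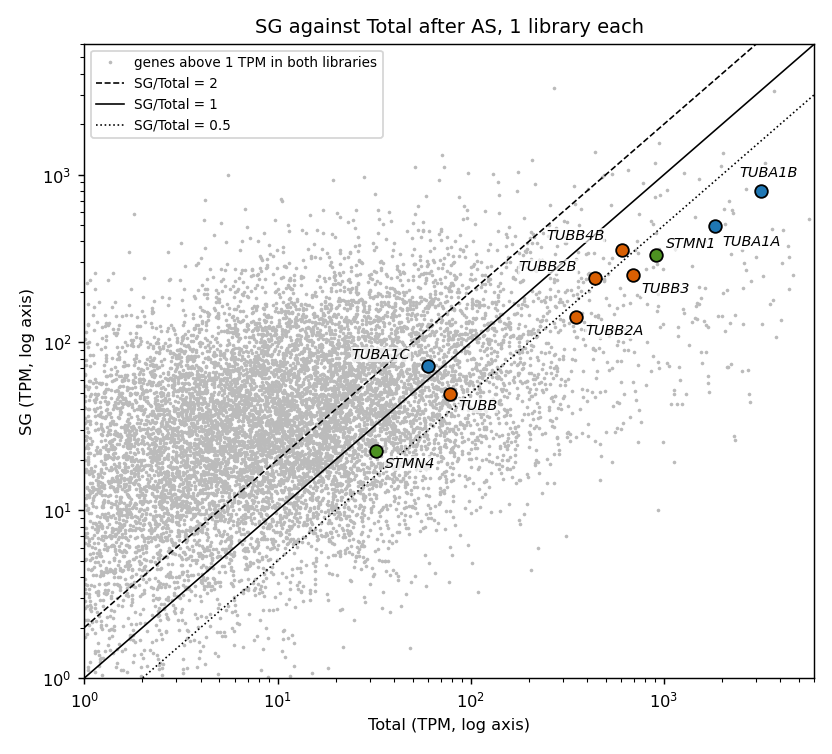
TPM in SG against TPM in Total (log axes, 1 library each) for genes above 1 TPM in both, with alpha tubulins in blue, beta tubulins in orange and stathmins in green. Most grey points lie above the line of equal TPM, whereas 9 members lie below it and TUBA1C lies just above.

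Abundance and transcript length moved with the class over all genes. Of the 985 genes above 100 TPM in Total, 58.6% were SG-depleted, and 5 of the 7 members above that level were. Within those genes the share was 63.1% of 884 with a canonical transcript under 3 kb and 18.0% of 100 with a longer one, and the canonical transcripts of the members ranged from 1443 bases for STMN1 to 2823 for TUBA1C. The part of abundance and length in the members' ratios was not tested. TPM is a share of each library, and the median ratio of SG to Total over 10958 genes was 2.78. Relative to that median gene, all 10 members were low, from 9.0% of it for TUBA1B to 43.5% for TUBA1C, and rescaled in this way all 10 were SG-depleted. With limits of 4 and 0.25 none was, since the lowest fold of TPM + 1, that of TUBA1B, was 0.2502.

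Genes that act on tubulin were classed in the same way, and their lists were not tested against the members. Of 12 genes of tubulin mRNA autoregulation, 10 were SG-enriched and 0 SG-depleted, against 62.9% and 9.45% of all genes. TTC5 had 2.04 TPM in Total and 20.03 in SG, SCAPER 0.879 and 21.3 TPM, and CNOT1, the scaffold of CCR4-NOT, the highest fold of the list with 10.6 and 346 TPM. The lowest of that list, CNOT10, had 29.6 and 25.7 TPM. Of 14 plus-end and severing factors 11 were SG-enriched and 0 SG-depleted, ranging from KATNA1, a katanin subunit, with 13.3 and 14.3 TPM to the plus-end protein CLIP1 with 0.402 and 57.0 TPM.

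Tubulin-modifying enzymes showed 9 SG-enriched and 2 SG-depleted genes of 16, the highest fold being that of the deglutamylase gene AGTPBP1 (1.08 and 26.9 TPM) and the lowest that of SVBP, partner of the vasohibins (39.3 and 6.36 TPM). Nucleation factors showed 5 and 2 of 10, from TUBGCP3 (5.78 and 84.8 TPM) to MZT2B (443 and 61.1 TPM). Tubulin folding factors showed 3 SG-enriched and 8 SG-depleted genes of 21, from TBCEL (1.38 and 24.1 TPM) to the prefoldin subunit PFDN5 (325 and 25.8 TPM). Of the other tubulin genes 7 of 14 reached 1 TPM, and 2 of them were SG-enriched and none SG-depleted. Gamma tubulin TUBG1 was the lowest with 166 and 111 TPM and delta tubulin TUBD1 the highest with 3.97 and 15.1 TPM. The other stathmins STMN2 (860 and 529 TPM) and STMN3 (127 and 79.1 TPM) were both Neither.

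The knockdown libraries ask how RNA levels depend on each G3BP protein. A gene was called when its TPM ratio to siCtrl was above 2 or below 0.5 with more than 1 TPM in the higher library. Both knockdowns share the siCtrl library, and each comparison rests on 1 library per condition, so no test was possible. In siG3BP1, 1 of the 10 members was called up, against 2.53% of 12280 genes, and 0 were called down, against 3.69%. In siG3BP2, 0 members were called in either direction, against 2.43% up and 5.62% down of 12229 genes.

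TUBA1C was the member with ratios far from 1, and they pointed in opposite directions. It had 108 TPM in siCtrl, 218 in siG3BP1 and 54.9 in siG3BP2, ratios of 2.02 and 0.51. The first lay just inside the limit of 2 and the second just outside that of 0.5. Total held 59.9 TPM of TUBA1C, nearer to the siG3BP2 value than to that of siCtrl. The part of the siCtrl library in these ratios was not tested. The share of TUBA1C in the alpha tubulin TPM was 2.09% in siCtrl, 4.17% in siG3BP1 and 1.15% in siG3BP2. The alpha tubulin sum was 5149, 5219 and 4757 TPM. TUBA1C shared 42.7% of its 50-base words with other genes and 26.7% with other members. Of the words within its coding sequence, 84.9% occurred in other genes. The part of read assignment in its ratios was not tested.

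The other 9 members had ratios from 0.875 to 1.05 in siG3BP1 and from 0.896 to 1.03 in siG3BP2. TUBA1A had 1892, 1991 and 1695 TPM in siCtrl, siG3BP1 and siG3BP2. TUBA1B had 3149, 3010 and 3007 TPM, and TUBB3 975, 944 and 967 TPM. TUBB was at 87.5, 87.5 and 89.2 TPM. The lowest of these ratios was that of STMN4 in siG3BP1, with 36.3 TPM beside 41.5 in siCtrl. The median ratio of all genes above 1 TPM was 0.941 in siG3BP1 and 0.919 in siG3BP2, so that a ratio of 1 was slightly above the median gene. The median log2 ratio of the 10 members was -0.02 in siG3BP1 and -0.03 in siG3BP2, beside -0.09 and -0.13 over all genes tested.

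Calls in the other lists stand beside 2.53% up and 3.69% down of all genes in siG3BP1, and 2.43% and 5.62% in siG3BP2. The lists are short, some calls such as TUBD1 and CNOT6L had values near 1 TPM, and the counts were not tested against those shares. Of the autoregulation genes, 0 were called up and 2 of 11 down in siG3BP1, with CNOT2 lowest (22.9 and 5.96 TPM) and CNOT8 highest (26.4 and 29.6 TPM). In siG3BP2, 0 were up and 1 of 12 was down, CNOT6L being lowest (2.62 and 0.951 TPM) and SCAPER highest (0.844 and 1.10 TPM). TTC5 had 5.32, 5.20 and 5.19 TPM in siCtrl, siG3BP1 and siG3BP2. Of the 8 other tubulins with enough TPM, 2 were up in siG3BP1 and 1 in siG3BP2, TUBD1 being highest in both (0.758 TPM in siCtrl, 3.48 in siG3BP1 and 1.77 in siG3BP2) and TUBA4A lowest in both (1.96, 1.03 and 1.39 TPM).

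Of the 21 folding factors 1 was up and 1 down in each knockdown. PFDN6 was highest in both, with 1.82 TPM in siCtrl, 10.6 in siG3BP1 and 14.3 in siG3BP2. PFDN1 was lowest in siG3BP1 (59.8 and 5.42 TPM) and TBCE lowest in siG3BP2 (8.26 and 1.51 TPM). Among the 14 plus-end and severing factors CLIP1 was the 1 called, down in both, with 7.65, 1.47 and 1.66 TPM in siCtrl, siG3BP1 and siG3BP2. Calls in both knockdowns rest on the same siCtrl value. Total held 12.1 TPM of PFDN6, 3.97 of TUBD1, 0.402 of CLIP1 and 0.735 of CNOT6L, nearer to the knockdown values than to siCtrl. The part of the siCtrl library in these calls was not tested. The modifying enzymes had 2 of 16 down in siG3BP1, SIRT2 being lowest (18.5 and 3.28 TPM), and 0 called in siG3BP2. Nucleation factors had 1 of 10 down in siG3BP1, TUBGCP3 (19.2 and 8.64 TPM), and 0 called in siG3BP2, where it was again lowest (11.5 TPM). The highest and lowest genes not yet given were uncalled. ATAT1, an alpha tubulin acetyltransferase, was the highest modifying enzyme in both knockdowns (1.49 TPM in siCtrl, 2.16 in siG3BP1 and 1.74 in siG3BP2), and TTL, the tubulin tyrosine ligase, was lowest in siG3BP2 (14.2 and 7.92 TPM). TUBGCP5 in siG3BP1 (1.71 and 3.4 TPM) and NME7 in siG3BP2 (12.9 and 17.4 TPM) were the highest nucleation factors, and CKAP5 in siG3BP1 (31.7 and 35.3 TPM) and CLASP2 in siG3BP2 (6.72 and 10.1 TPM) the highest of the plus-end list. STMN2 had 631, 741 and 728 TPM and STMN3 252, 235 and 225 TPM in siCtrl, siG3BP1 and siG3BP2.

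Over the 5 libraries together, the genes nearest to the median pattern of the members were sought among 10757 genes above 10 TPM in at least 1 library. The measure was the Euclidean distance between their log2(TPM + 1) changes from siCtrl and the median change of the members. As the members set this median, their own nearness to it is partly built in. The 5 nearest were TMEM222, NDUFV2, CDK4, BRMS1 and ADRM1. TUBB2B was the member nearest to the median pattern, at rank 18, followed by TUBB at 39 and TUBB4B at 43. STMN4 stood at rank 208, TUBB2A at 311, TUBA1A at 1878, TUBA1B at 1983 and TUBB3 at 2039. STMN1 and TUBA1C were the farthest, at ranks 3447 and 3368.

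The rRNA-depleted libraries ask how RNA levels moved under AS. Their values behaved as reads per kilobase and library size (RPKM): multiplied by transcript length they fell on whole steps, which gave 13291958 reads for untreated and 11281587 for AS-treated cells. A read that overlaps several transcripts was counted in each of them, so the transcripts of a gene are not independent. The same thresholds were applied, a ratio above 2 or below 0.5 with more than 1 in the higher library. A single transcript per gene, the canonical one or for STMN4 the matched one with most reads, is called the lead transcript here.

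STMN4 was the member called up under AS. Its lead transcript had 50 reads in untreated cells and 113 in AS-treated cells, a ratio of 2.66 after scaling, with an exact 95% interval of 1.89 to 3.79 that covers counting error only. With its transcripts summed, the ratio was 2.79. By summed transcripts STMN4 was 1 of 9 members called up, against 7.63% of 12712 genes, and 0 were called down, against 1.41%. By lead transcripts it was again 1 called up, against 4.02% of 10831 genes, with 0 down against 0.397%. The median log2 ratio of the summed members was 0.36, beside 0.29 over all genes.

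The other members stayed close to the bulk of the transcriptome, whose median ratio was 1.22 over 10087 lead transcripts. TUBA1A had 9474 and 9556 reads (ratio 1.19, interval 1.15 to 1.22), and TUBA1B 10335 and 9926 reads (1.13, 1.10 to 1.16). TUBA1C had 420 and 371 reads, a ratio of 1.04 with an interval of 0.903 to 1.2. The 3 alpha tubulins thus lay at or below the median gene.

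Of the beta tubulins, TUBB2A had 195 and 220 reads (ratio 1.33, interval 1.09 to 1.62) and TUBB2B 831 and 877 (1.24, 1.13 to 1.37). TUBB3 had 2791 and 2584 reads, with a ratio of 1.09 and an interval of 1.03 to 1.15 that lay below the median. TUBB4B had 2226 and 2440 reads (1.29, 1.22 to 1.37). STMN1 had 2551 and 2744 reads, a ratio of 1.27 with an interval of 1.2 to 1.34. Divided by the median ratio, these members ranged from 0.855 for TUBA1C to 1.09 for TUBB2A, and STMN4 stood at 2.19.

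**Figure D3:**
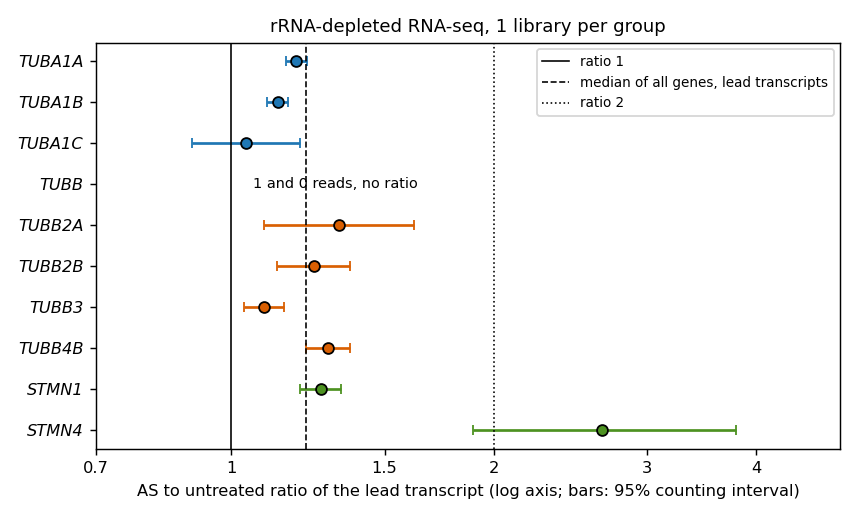
Ratio of AS-treated to untreated cells for the lead transcript of each member (log axis) with exact 95% intervals that cover counting error only, 1 library per group. STMN4 lies apart with 2.66, and the other members with a ratio cluster around the dashed line at the median of all genes.

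Over all transcripts, 70 of the 79 passed the minimum, of which 8 were up, against 6.84% of 100705 transcripts, and 2 down, against 2.01%. All 7 STMN4 transcripts were up, and they share most of their reads. The eighth was ENST00000549183.1 of TUBA1C with 10 and 23 reads. The 2 that were down were ENST00000554116.5 of TUBB3 (11 and 4 reads) and ENST00000513116.1 of STMN1 (25 and 10 reads), both annotated without a defined coding sequence, and their intervals of 0.0995 to 1.45 and 0.202 to 1.02 reached past 1. The median ratio was 1.19 over the members' transcripts and 1.19 over all.

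TUBB had 1 read in untreated and 0 in AS-treated cells on its lead transcript, which allows up to 3 reads or 0.106 RPKM in the latter. It was not called, although it had 87.5 TPM in siCtrl. TUBB2A was low in this table as well, with 9.08 RPKM beside 344 TPM in siCtrl, a ratio of 0.0264 at percentile 4.01 of 6991 genes, whereas the median gene had 0.175. The tables were made by different library protocols and units, so only the order of such ratios within the set of genes can be read.

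TUBB lies in the stretch of chromosome 6 that holds the major histocompatibility complex. Between 28.5 and 33.5 Mb, 27 genes had more than 10 TPM in siCtrl. Of these, 10 had at most 1 read on the lead transcript in the untreated rRNA-depleted library, against 93 of 6971 such genes elsewhere, and 11 were at 0 in all 8 eCLIP libraries, against 33 of 7008. This stretch was chosen after the values of TUBB were seen, and the cause was not tested. The listed 0 of TUBB in those tables is therefore not read as a low level. The 27 genes above 10 TPM in siCtrl were among 181 listed in the stretch, against 7008 among 19761 elsewhere. Whether the TPM of TUBB, and with it its rank and its share of the beta tubulins, is too low was not tested. Which genes of the other lists lie in the stretch was not examined, so the same limit may hold for some of their values.

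In the other lists, the autoregulation genes had 1 of 12 up, CNOT3 (9.75 and 22.8 RPKM, transcripts summed), and 0 down. TTC5 was the lowest of them with 10.1 and 11.1 RPKM. The plus-end and severing list had 1 of 14 up, KATNA1 (12.8 and 27.3 RPKM), with CLIP2 lowest (34.3 and 31.8 RPKM), and the folding list 1 of 20 down, TBCE (7.76 and 2.18 RPKM), with TBCC highest (4.64 and 8.33 RPKM). Other tubulins had 2 of 10 up and 1 down, from TUBA3D (1.24 and 0.596 RPKM) to TUBB1 (0.340 and 1.07 RPKM). The modifying enzymes had 1 of 15 up, SIRT2 (0 and 1.11 RPKM), with SVBP lowest (11.7 and 8.20 RPKM), and the 9 nucleation factors had none called, from MZT2A (16.4 and 11.0 RPKM) to NEDD1 (45.6 and 74.0 RPKM). STMN2 (408 and 475 RPKM) and STMN3 (99.7 and 116 RPKM) were not called. By summed transcripts, 7.63% of all genes were up and 1.41% down. The values of TUBA3D, TUBB1 and SIRT2 lie near the minimum of 1, and no counting interval was computed for genes of these lists.

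The eCLIP libraries ask which RNAs G3BP1 and G3BP2 contact before and after AS. The deposited value of a gene is on a log10 scale, and low values are the logarithm of a whole number + 1. Undoing the logarithm and rounding to the nearest whole number gave what is called the recovered number here. As deposited values have few decimals, larger recovered numbers are estimates. These numbers summed to between 4268911 and 26179736 per library, and replicate 1 exceeded replicate 2 in each group. They were therefore scaled to the median library total before log10 of the scaled number + 1 was taken. Of the 10 members 7 were above 0 in all 8 libraries, TUBB2A in 6, TUBB4B in 2 and TUBB in 0.

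The eCLIP number followed gene span far more than mRNA level. Across 19910 genes, the correlation of the deposited value with log10 of the gene span, introns included, was 0.819 to 0.827 in the 8 libraries, and that with log2(TPM + 1) in siCtrl was 0.0570 to 0.108. These are descriptions across genes of the same libraries. Among the members TUBA1C, which spans 85.9 kb and had 108 TPM, carried the largest recovered number, 4592 over the 8 libraries. STMN4 (23.1 kb, 41.5 TPM) followed with 2372 and TUBB3 (17.4 kb) with 1832. TUBA1B, with 3149 TPM on 3.62 kb, had 406, and TUBA1A, with 1892 TPM on 4.4 kb, had 475. The order was not that of span throughout, since STMN1 (22.8 kb) had 564 and TUBB2B (8.41 kb) had 335.

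Per kilobase of gene span the order turned. TUBA1B and TUBA1A had a mean scaled number of 22.5 and 22.3 per kb, at percentiles 92.4 and 92.3 of all genes, whose median was 6.97. TUBB3 had 15.3 per kb, STMN4 15.1, TUBB2A 11.2, TUBA1C 7.19 and TUBB2B 5.92. STMN1 with 2.94 and TUBB4B with 1.26 per kb were at percentiles 20.6 and 8.10. TUBB was listed at 0 in all libraries.

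**Figure D4:**
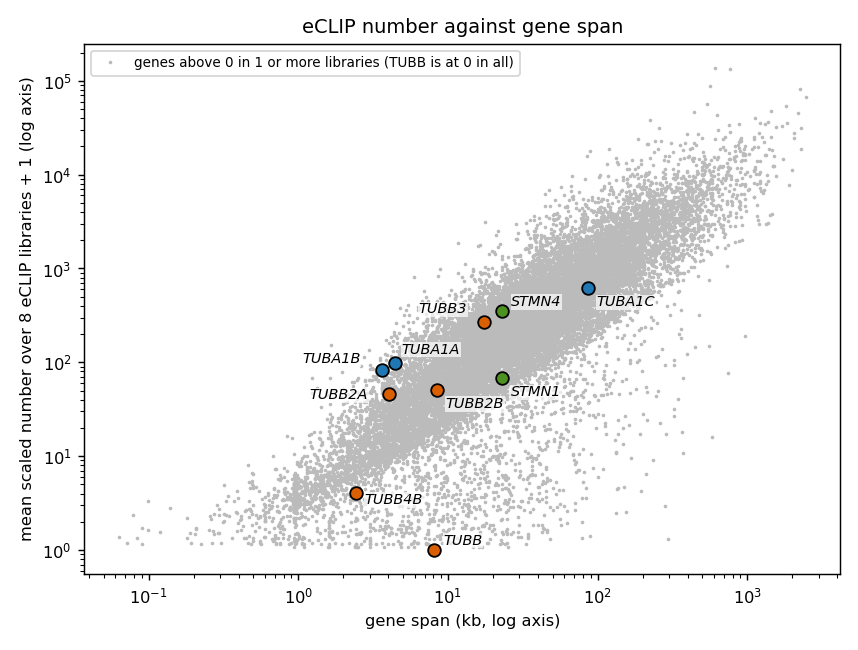
Mean scaled eCLIP number over 8 libraries plus 1 against gene span in kb (both log axes) for genes above 0 in at least 1 library, with alpha tubulins in blue, beta tubulins in orange and stathmins in green. TUBA1A and TUBA1B lie at the upper edge of genes of their span, STMN1 and TUBB4B lie toward the lower edge and TUBB lies at 0.

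By library, the alpha tubulins gave the following recovered numbers, listed as replicates 1 and 2 of untreated and then of AS-treated cells. For G3BP1, TUBA1A had 64, 68, 62 and 64, and for G3BP2 43, 54, 62 and 58. TUBA1B had 97, 73, 57 and 64 for G3BP1 and 34, 20, 48 and 13 for G3BP2. TUBA1C had 932, 250, 740 and 177 for G3BP1 and 831, 549, 890 and 223 for G3BP2. TUBA1C followed the library totals, whereas TUBA1A was nearly level across libraries that differ several-fold in total.

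The beta tubulins were more erratic. TUBB3 had 26, 268, 574 and 39 for G3BP1 and 40, 173, 630 and 82 for G3BP2, so that replicate 2 was the higher in untreated and replicate 1 the higher in AS-treated cells for both proteins. TUBB2A had 88, 0, 37 and 0 for G3BP1 and 64, 27, 80 and 64 for G3BP2. TUBB2B had 94, 31, 48 and 21 for G3BP1 and 47, 27, 51 and 16 for G3BP2. TUBB4B had 24 in replicate 1 of untreated G3BP1, 12 in replicate 1 of untreated G3BP2 and 0 in the other 6 libraries.

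The stathmins followed the library totals more closely. STMN1 had 122, 32, 88 and 8 for G3BP1 and 137, 34, 114 and 29 for G3BP2. STMN4 had 436, 150, 416 and 99 for G3BP1 and 354, 262, 416 and 239 for G3BP2. After scaling, STMN4 ranged from 2.36 to 2.72 on the log10 scale over the 8 libraries and TUBA1C from 2.69 to 2.93, the narrowest ranges of the set apart from TUBB.

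**Figure D5:**
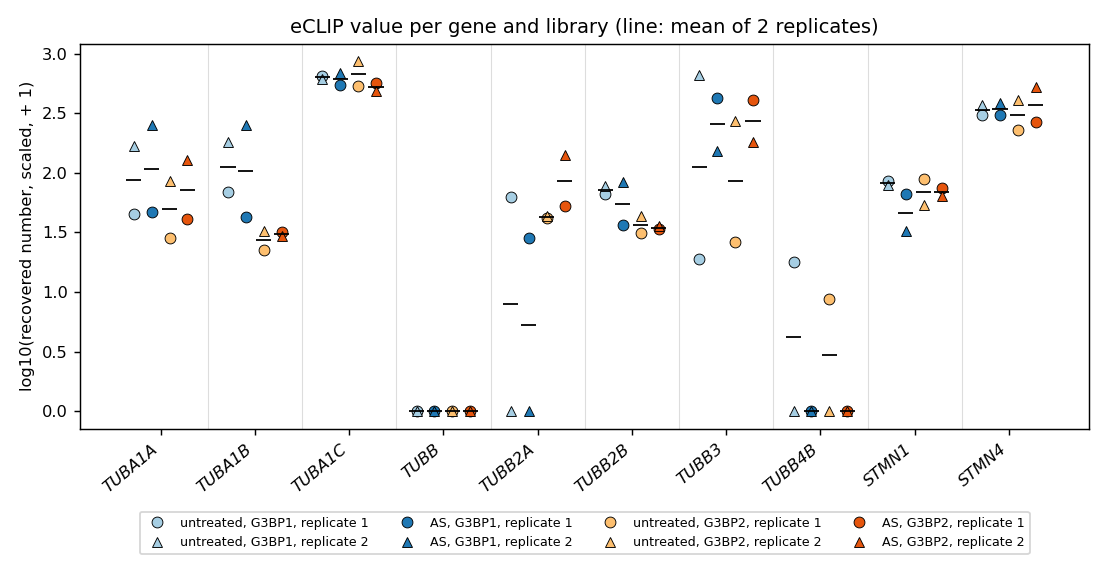
log10 of the scaled eCLIP number + 1 in each of the 8 libraries, with replicates 1 (circles) and 2 (triangles), untreated and AS-treated, for G3BP1 (blue) and G3BP2 (orange), and the mean of each group as a line. The groups of most members overlap, TUBB3 and TUBB4B differ widely between replicates, and the TUBB2A triangles of G3BP1 are at 0.

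AS was compared with untreated cells by limma with Benjamini-Hochberg adjustment over all genes. For G3BP1, 0 of 18888 genes passed 0.05 (0%). Without adjustment 253 genes above and 229 below 0 had a p under that level, and 0 of the 8 members tested were in either group. The changes of the members ran from -0.25 ± 0.18 (SE, log10 scale, n = 2 against 2) for STMN1 to 0.36 ± 0.51 for TUBB3, all with an adjusted p of 0.996 by limma, and their median was -0.02. STMN1 was the member whose groups did not overlap, lower after AS with 1.92 ± 0.02 (SD) untreated and 1.66 ± 0.22 after AS. In that direction 14.5% of all genes did not overlap, and 13.3% in the other.

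For G3BP2, 0 of 19035 genes passed (0%). Without adjustment 330 genes above and 305 below 0 had a p under 0.05, and 0 of 8 members were in either group. Changes ran from -0.11 ± 0.09 (SE, log10 scale) for TUBA1C to 0.50 ± 0.35 for TUBB3, with adjusted p-values of 0.995 to 0.998 by limma and a median of 0.07. TUBB2A was the member whose groups did not overlap, higher after AS with 1.63 ± 0.01 (SD, n = 2) untreated and 1.93 ± 0.30 after AS, where 14.7% of all genes did not overlap in that direction and 15.6% in the other. For TUBB3 the SD between untreated replicates was 1.09 for G3BP1 and 0.71 for G3BP2, larger than the change in each.

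Whether AS acted differently on the 2 proteins was tested by the interaction over all 8 libraries. Of 19259 genes 0 passed (0%), and 60 above and 84 below 0 had an unadjusted p under 0.05 by limma, 0 of 9 members among these. The interaction was 0.48 ± 0.92 (SE, log10 scale) for TUBB2A, 0.25 ± 0.22 for STMN1 and 0.15 ± 0.74 for TUBB3, with an adjusted p of 1.00 by limma for each. These errors treat the 8 libraries as independent. Equally numbered libraries of the 2 proteins deviated together at the same treatment, with correlations of 0.543 untreated and 0.477 after AS. Such shared spread enters the errors. As fitted, the errors of 0.92 for TUBB2A and 0.74 for TUBB3 on the log10 scale leave room for very large differences in these genes.

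G3BP2 was also compared with G3BP1 over both treatments. Again 0 of 19259 genes passed (0%), and 175 above and 160 below 0 had an unadjusted p under 0.05 by limma. TUBA1B was the 1 member among these, lower in G3BP2 by -0.57 ± 0.18 (SE, log10 scale, 4 libraries against 4), with an unadjusted p of 0.0113 and an adjusted p of 0.999 by limma. Its G3BP1 libraries had scaled values of 1.84, 2.26, 1.63 and 2.40, all above the G3BP2 values of 1.36, 1.51, 1.5 and 1.47. Libraries separated in this way for 0.737% of all genes with G3BP2 lower and for 0.966% with G3BP2 higher. TUBB2A was higher in G3BP2 by 0.97 ± 0.44 and TUBB2B was lower by -0.25 ± 0.11, and both had an adjusted p of 0.999 by limma. TUBB2A was at 0 in replicate 2 of G3BP1, both untreated and after AS. In replicate 1 its scaled values, untreated and after AS, were 1.79 and 1.45 for G3BP1 and 1.62 and 1.72 for G3BP2. TUBA1A differed by -0.21 ± 0.22, and for the other 5 members tested the difference lay between -0.08 and 0.05. These errors take no account of replicate numbers. With the replicate block 4 members instead of 1 had an unadjusted p under 0.05 by limma, and 0 passed after adjustment.

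In none of the 4 fits did a gene of the autoregulation, folding, modification, nucleation or plus-end lists pass the threshold. For AS against untreated, the autoregulation genes ranged from CNOT3 (-0.87 for G3BP1 and -1.18 for G3BP2 on the log10 scale) to CNOT9 (0.25, G3BP1) and CNOT6 (0.17, G3BP2). The folding genes ranged from PFDN5 (-1.99 and -1.54) to PFDN2 (0.97 and 0.87). Other tubulins ranged from TUBB4A (-0.52 and -0.46) to TUBA3E (0.22, G3BP1) and TUBA3D (0.37, G3BP2), and STMN2 and STMN3 had -0.22 and 0.49 for G3BP1 and -0.09 and 0.41 for G3BP2. Modifying enzymes ranged from SVBP (-0.75) to TTLL12 (0.18) for G3BP1 and from VASH1 (-0.24) to SVBP (0.30) for G3BP2. Nucleation factors ranged from MZT2B (-0.57 and -1.09) to TUBGCP5 (0.56, G3BP1) and MZT2A (0.18, G3BP2). The plus-end list ranged from KIF2C (-0.51, G3BP1) and FIGNL1 (-0.25, G3BP2) to MAPRE1 (0.34 and 0.36).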

How the data were processed

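The members and the lists around them were chosen with earlier results of these data known. The submitters' processing notes name HISAT2 2.1.0 and hg38. For knockdown, Total and SG libraries the authors estimated TPM with StringTie and deposited them for protein-coding genes. TPM gives no depth. For rRNA-depleted libraries they deposited values under a TPM header that behaved as RPKM, since their sums exceed those TPM can have and at least 99.999% of them, times transcript length, are whole multiples of the value of 1 read (tolerance 0.01). The authors deposited eCLIP values on a log10 scale, per the file headers as peaks, after UMI deduplication, STAR alignment, CLIPper peak calling and normalization to SMInput, and which of these steps the numbers include is not given in the sources used here. The 4 SMInput samples were not analysed here.

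Values were scaled, compared and drawn with Python 3.11.15, pandas 2.3.3, scipy 1.17.1, Biopython 1.88 and matplotlib 3.10.9. Library totals are given once for the rRNA-depleted and once for the eCLIP libraries, and intervals cover counting error only. For eCLIP, limma 3.58.1 (R 4.3.3) was fitted over genes above 0 in at least 2 libraries, with a trend of variance on level. The fit was also run on simulated data with a preset spread between libraries, not the spread seen here. That run therefore gives no error rate for these data. Libraries were scaled because their totals differ several-fold within groups. RNA-seq comparisons had 1 library per group and no test. The rule for named genes was all members, the highest and lowest gene of each list per comparison, TTC5, SCAPER and the knockdown targets. Marker lists, and all lists in the interaction and in G3BP2 against G3BP1, are given without these extremes, and NOTCH2 was named after its values were seen. The alternatives varied pseudocounts, thresholds, filters, scaling, the replicate block and the libraries used. Genes were matched to GENCODE v44 on hg38 (19910 of 19942 rows, and 91.1% of transcripts by ID), a later release than the authors used. Sequences came from the GENCODE transcripts, and stathmin sequences are not shown.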

Additional observations from a re-analysis of the deposited data

Results flagged for a closer look

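TUBA1C had a ratio to siCtrl of 2.02 in siG3BP1 and of 0.51 in siG3BP2, so that its level went in opposite directions in the 2 knockdowns. Each value rests on 1 library, both share the siCtrl library, and the difference between them was not tested. In Total TUBA1C had 59.9 TPM, nearer to the 54.9 TPM of siG3BP2 than to the 108 TPM of siCtrl. The part of the siCtrl library in these ratios was not tested. No eCLIP interaction of treatment and protein passed the threshold for a member by limma. No group had 4 or more samples, so no library was examined for standing apart within its group.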

How the results depend on the processing

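The number of SG-depleted members was 5 as reported, 0 with limits of 4 and 0.25, and 10 when SG was rescaled to a median ratio of 1, where the number over all genes was 1282, 538 and 3271. In siG3BP2 1 member, TUBA1C, was called down with limits of 1.5 instead of 2. Of the members' rRNA-depleted transcripts, 8 up and 2 down became 5 and 0 with a minimum of 5, and the number down became 9 with no minimum and 0 with a pseudocount of 1. With no minimum TUBB was counted as 1 gene down, both for summed and for lead transcripts, from 1 read against 0. The results on lead transcripts, and those settings of the minimum and pseudocount for summed transcripts, were added after seeing the data.

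In eCLIP 0 members passed the threshold in any of the 4 fits under any alternative, leaving out each replicate in turn included (0 to 0). Over all genes the count was 0, with exceptions of 2 genes for G3BP2 with values as deposited and 0 to 24 genes without 1 replicate, the highest for the interaction without replicate 1 of AS-treated G3BP1. Where a group was left with 1 library, that library was assumed to vary like the others. Of 435 refits of single members 61 changed the sign of a change that had not passed, and the lowest adjusted p was 0.292. The replicate numbers mark no stated batch. Deviations of equally numbered libraries correlated at 0.477 to 0.543 between proteins at the same treatment and at 0.110 to 0.176 otherwise. The replicate block is 1 term over both treatments, so it does not model this sharing within a treatment. With the replicate block the number of members past the threshold was 0 in each fit, with or without scaling, while for G3BP2 against G3BP1 those at an unadjusted p under 0.05 by limma went from 1 to 4. Depth is unknown for TPM, and the RNA-seq comparisons have no replicate check.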
